A study of Mus musculus with 2 samples.

Results

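The 10 genes described here encode proteins through which insulin and the insulin-like growth factors act on cells. They are the ligand gene Igf1, the receptor genes Insr and Igf1r, the adaptor genes Irs1 and Irs2, and the binding protein genes Igfbp3, Igfbp4, Igfbp5, Igfbp6 and Igfbp7. They were chosen by gene symbol, and all 10 were found among the 55536 genes of the tables. In this pathway insulin binds mainly the insulin receptor and IGF1 mainly the IGF1 receptor, and both are receptor tyrosine kinases. The active receptors phosphorylate the adaptors Irs1 and Irs2, which recruit phosphoinositide 3-kinase and so switch on the kinase AKT. The secreted binding proteins hold IGFs outside the cell and set how much ligand reaches the receptor. In heart muscle the pathway is known for driving glucose uptake and physiological growth.

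RNA was measured in hearts of female B6CASTF1/J mice, a first-generation cross of C57BL/6J with CAST/EiJ, at 25 days of age. There was a single group of 2 libraries, labelled biological replicates 1 and 2, with different animal numbers under a shared donor record. No allele, treatment or condition was compared, so the data give levels in one kind of heart and the spread between 2 libraries. Each library was a ribosomal-RNA-reduced total RNA library from 300 ng of RNA with ERCC spike-ins, synthetic RNAs added in known amounts. The tables assign no read to a parental genome, and the annotation is that of the mm10 reference.

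Replicate 1 held 42966739 and replicate 2 held 42720824 gene counts in all, and 11947 genes reached a TPM of 1 in both libraries. TPM, a measure scaled to the same total in every library, is the share of RNA molecules after division by transcript length. All 6 cardiomyocyte markers (Myh6, Actc1, Tnnt2, Tnni3, Myl2 and Ryr2) were detected, with summed levels of 31110 TPM in replicate 1 and 32230 TPM in replicate 2. The libraries differed in genes of liver and of the response to fasting and glucocorticoids, in lists chosen with earlier results of these data known. All 8 hepatocyte markers were higher in replicate 2, with summed levels of 2.99 TPM in replicate 1 and 28.03 TPM in replicate 2, and Alb had 2 counts in replicate 1 and 907 counts in replicate 2. Genes of the glucocorticoid and fasting response summed to 671 TPM in replicate 1 and 349.9 TPM in replicate 2. In bulk tissue, more cells of a type and more RNA per cell cannot be told apart.

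Several annotated forms of the genes differ by one exon, and the transcript values below turn on these junctions. The sequences are reference transcripts of GENCODE M21 on mm10, read 5′ to 3′, with the exon that only one of each pair holds in capitals. The first pair shows the 36-base cassette exon of Insr, at chr8:3181702-3181737 on the minus strand, known as exon 11. Its absence makes the A form of the receptor, which binds IGF2 with higher affinity than the B form does. The second pair shows a 52-base alternative exon of Igf1, at chr10:87915298-87915349 on the plus strand, which changes the E peptide at the end of the precursor.
Insr-203, with the cassette exon: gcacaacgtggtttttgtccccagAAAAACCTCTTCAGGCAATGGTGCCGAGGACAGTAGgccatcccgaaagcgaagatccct
Insr-201, without it: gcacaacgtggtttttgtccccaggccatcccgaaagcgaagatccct
Igf1-203, with the alternative exon: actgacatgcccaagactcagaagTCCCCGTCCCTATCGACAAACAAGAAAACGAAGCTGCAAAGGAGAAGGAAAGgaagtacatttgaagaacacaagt
Igf1-202, without it: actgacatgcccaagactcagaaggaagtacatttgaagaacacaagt

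All 10 genes were detected, and their levels spanned 28.1-fold between Igfbp7 and Irs2. By mean TPM the order was Igfbp7, Insr, Igfbp5, Igfbp4, Irs1, Igfbp6, Igfbp3, Igf1r, Igf1 and Irs2. Igfbp7 ranked 518 and Irs2 ranked 8365 among 22015 nuclear protein-coding genes. The read-based tables, a second quantification of the same libraries, gave the same order of means. By gene-table TPM, 2 of the 9 neighbouring pairs overlapped between libraries: Irs1 with Igfbp6, and Igfbp6 with Igfbp3. In the other neighbouring pairs the lower library of the higher gene was above both libraries of the next gene. By read-based TPM, Insr (45.3 in replicate 1, 46.76 in replicate 2) also overlapped with Igfbp5 (49.73 and 40.29). Igfbp5 in turn overlapped with Igfbp4 (40.47 and 38.52).

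**Figure D1:**
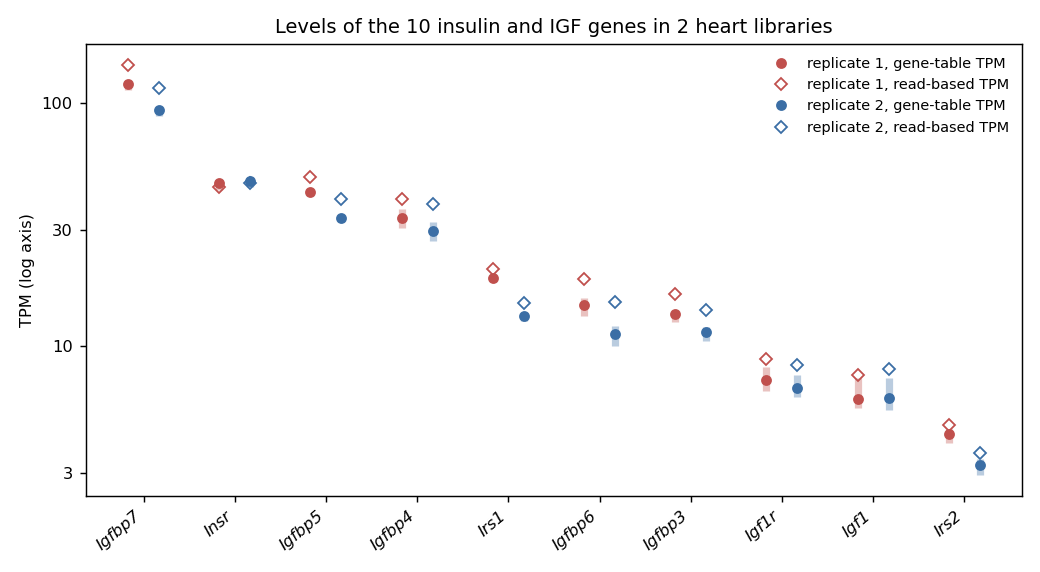
TPM (log axis) of the 10 genes in replicate 1 (red, left) and replicate 2 (blue, right), ordered by mean; filled circles are alignment-based gene-table values, bars their deposited credibility intervals, and open diamonds the read-based values. Igfbp7 lies at 119.56 and 93.85 TPM and Irs2 at 4.35 and 3.24 TPM, while both points of Insr lie close together.

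Among the receptors, Insr was the second highest of the 10 genes by mean TPM of all its transcripts. Insr (ENSMUSG00000005534.10, chr8:3122061-3279617, minus strand) encodes the insulin receptor and measured 46.78 TPM in replicate 1 and 47.99 TPM in replicate 2. Its mean was 47.4 ± 0.856 TPM (SD, n = 2), and the deposited credibility intervals, 43.95 to 48.37 TPM and 45.22 to 49.52 TPM, overlapped. Igf1r (ENSMUSG00000005533.10, chr7:67952827-68233668, plus strand) encodes the IGF1 receptor and measured 7.25 TPM in replicate 1 and 6.72 TPM in replicate 2, or 6.98 ± 0.375 TPM (SD, n = 2). Insr was thus the higher receptor gene in both libraries, with no overlap.

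The log2 ratio of Igf1r over Insr, from TPM plus a pseudocount of 0.1, was -2.67 in replicate 1 and -2.82 in replicate 2, with a mean of -2.75 ± 0.10 (SD, n = 2). This corresponds to a level of Igf1r 6.71-fold below that of Insr. The gap was smaller in the read-based tables, at 5.29-fold. No test was applied to such ratios, since a sign-flip test over 2 libraries cannot give a p below 0.5. Over 4006 aligned coding bases the receptor genes were 66.1% identical, and their longest identical run was 19 bases. That run, in capitals below, is the longest stretch of coding bases that does not tell the genes apart. The bases next to it on either side differ.
Igf1r-201, chr7:68187018-68187060, plus strand: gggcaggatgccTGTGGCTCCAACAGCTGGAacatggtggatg
Insr-201, chr8:3192732-3192774, minus strand: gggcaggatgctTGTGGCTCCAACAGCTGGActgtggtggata

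Of the other receptor genes, Igf2r, whose product carries IGF2 to lysosomes for breakdown, measured 41.72 TPM in replicate 1 and 40.46 TPM in replicate 2. Insrr, the insulin receptor-related receptor, had 4 counts in replicate 1 and 3 counts in replicate 2. The heart libraries thus held Insr and Igf2r at similar levels, well above Igf1r.

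The adaptors differed from each other in the same direction in both libraries. Irs1 (ENSMUSG00000055980.2, chr1:82233101-82291416, minus strand) measured 19.14 TPM in replicate 1 and 13.33 TPM in replicate 2, or 16.2 ± 4.11 TPM (SD, n = 2). Irs2 (ENSMUSG00000038894.7, chr8:10984681-11008458, minus strand) measured 4.35 TPM in replicate 1 and 3.24 TPM in replicate 2, or 3.79 ± 0.785 TPM (SD, n = 2). For each adaptor gene replicate 1 was the higher library, and the deposited credibility intervals of the libraries were separate. The log2 ratio of Irs1 over Irs2 was 2.06 ± 0.07 (SD, n = 2), a 4.17-fold higher level of Irs1. Each adaptor gene has 1 annotated transcript with 2 exons. Over 3441 aligned coding bases they were 62.6% identical.

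Among the 10 other adaptor genes listed, 6 were detected. The highest was Grb14, an inhibitor of insulin receptor kinase activity, with 75.68 TPM in replicate 1 and 83.05 TPM in replicate 2. The lowest detected was Shc1, which links receptors to the RAS and MAP kinase route, with 13.78 TPM in replicate 1 and 14.8 TPM in replicate 2. The adaptor paralogs Irs3 and Irs4 had 8 and 1 counts in replicate 1 against 18 and 1 counts in replicate 2, so Irs1 and Irs2 held nearly all of the Irs signal.

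The promoter windows of the adaptor genes were compared as those of a paralog pair. RefSeq promoter windows (GRCm38.p6, 250 bases before to 50 after the RefSeq start) were found for 9 of the 10 genes, Insr having none in the table used. The motif CACGTG, a palindrome and so the same on both strands, occurred once in each adaptor window and in no other window of the 10 genes. In the comparison of libraries given further on, the adaptor genes and 4 genes without the motif were past the adjusted p and higher in replicate 1. Any part of the motif in those ratios was not tested. It occurred in 7.15% of all 32851 windows. The longest stretch shared by the adaptor windows, picked because both hold it, was the 10-base GTCACGTGTT, found on either strand in 0.0761% of all windows. The motif begins 115 bases upstream of the RefSeq start of Irs1 and 44 bases upstream of that of Irs2, and it is in capitals below. In the annotation used for the levels both genes start downstream of the RefSeq start, at chr1:82291416 for Irs1 and chr8:11008458 for Irs2. The motif thus lies farther from those starts, above all for Irs2. A match of letters does not show that a factor binds there.
Irs1, chr1:82291517-82291576, minus strand: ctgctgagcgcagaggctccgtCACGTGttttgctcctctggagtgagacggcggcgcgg
Irs2, chr8:11008936-11008995, minus strand: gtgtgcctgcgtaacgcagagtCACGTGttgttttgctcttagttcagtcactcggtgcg

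The ligand gene Igf1 was expressed at a low level. Igf1 (ENSMUSG00000020053.18, chr10:87858265-87937042, plus strand) measured 6.09 TPM in replicate 1 and 6.13 TPM in replicate 2, or 6.11 ± 0.0283 TPM (SD, n = 2). Its counts were 1022 in replicate 1 and 872 in replicate 2, so equal TPM did not mean equal counts. Igf2, the gene of the other IGF ligand, was higher, with 50.24 TPM in replicate 1 and 60.27 TPM in replicate 2. The log2 ratio of Igf1 over Igf2 was -3.15 ± 0.18 (SD, n = 2), a level of Igf1 8.88-fold below that of Igf2. The insulin genes were near or at 0: Ins1 had 0 counts in both libraries, which allows up to 0.0922 TPM in replicate 1 and 0.0892 TPM in replicate 2, and Ins2 had 0 counts in replicate 1 and 1 count in replicate 2. Circulating IGF1 comes mainly from liver, so the level of Igf1 RNA in heart says nothing of the ligand that reaches it by blood. Hepatocyte markers were higher in replicate 2, as given above, and any part of liver RNA in the Igf1 values was not tested.

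The binding protein genes held the highest and some of the middle levels of the 10 genes. Igfbp7 (ENSMUSG00000036256.13, chr5:77349240-77408041, minus strand), whose product binds IGFs weakly and is known from vascular cells, measured 119.56 TPM in replicate 1 and 93.85 TPM in replicate 2, or 106.7 ± 18.2 TPM (SD, n = 2). Igfbp5 (ENSMUSG00000026185.8, chr1:72857932-72874884, minus strand), which encodes a matrix-bound IGF binding protein, measured 43.07 TPM in replicate 1 and 33.82 TPM in replicate 2, or 38.4 ± 6.54 TPM (SD, n = 2). Igfbp4 (ENSMUSG00000017493.12, chr11:99041244-99054392, plus strand), an inhibitor of IGF action that the protease encoded by Pappa cleaves, measured 33.79 TPM in replicate 1 and 29.71 TPM in replicate 2, or 31.8 ± 2.88 TPM (SD, n = 2). In all 3 genes replicate 1 was the higher library.

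Igfbp6 and Igfbp3 lay lower and overlapped. Igfbp6 (ENSMUSG00000023046.6, chr15:102144362-102149511, plus strand), whose product prefers IGF2, measured 14.75 TPM in replicate 1 and 11.23 TPM in replicate 2, or 13.0 ± 2.49 TPM (SD, n = 2). Igfbp3 (ENSMUSG00000020427.11, chr11:7206086-7213923, minus strand), whose product is the main IGF carrier of blood, measured 13.60 TPM in replicate 1 and 11.48 TPM in replicate 2, or 12.5 ± 1.50 TPM (SD, n = 2). Their order in replicate 1 and in replicate 2 was not the same: Igfbp6 was the higher of the pair in replicate 1 and Igfbp3 in replicate 2. By read-based TPM Igfbp6 was the higher in both, at 18.91 against 16.47 in replicate 1 and 15.24 against 14.11 in replicate 2.

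As a family, Igfbp1 to Igfbp7 summed to 224.82 TPM in replicate 1 and 180.15 TPM in replicate 2. Igfbp7 made up 52.6 ± 0.767% of that sum (SD, n = 2), Igfbp5 19.0 ± 0.272%, Igfbp4 15.8 ± 1.03%, Igfbp6 6.397 ± 0.231% and Igfbp3 6.21 ± 0.228%. Each of these shares moved less between the libraries, in relative terms, than the level of its gene did. Igfbp2 had 2 counts in each library, and Igfbp1, a binding protein gene of liver, had 0 counts in both, which allows up to 0.0623 TPM in replicate 1 and 0.0603 TPM in replicate 2. These genes sit next to expressed family members. Igfbp2 lies 5457 bases from Igfbp5 on chromosome 1, and Igfbp1 lies 3539 bases from Igfbp3 on chromosome 11, each on the opposite strand of its neighbour.

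Other genes that act on the binding proteins were mostly low. Igfals, the acid-labile subunit that joins IGF and Igfbp3 in blood, measured 2.67 TPM in replicate 1 and 2.37 TPM in replicate 2, and Igfbpl1 measured 0.32 TPM in replicate 1 and 0.31 TPM in replicate 2. Of 5 genes for binding protein proteases and their inhibitors, 2 were detected. Htra1, a serine protease, measured 54.65 TPM in replicate 1 and 51.07 TPM in replicate 2, and Stc2, which encodes an inhibitor of the Pappa protease, measured 10.02 TPM in replicate 1 and 10.78 TPM in replicate 2. Pappa itself had 67 counts in replicate 1 and 51 counts in replicate 2, or 0.18 and 0.13 TPM.

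The 10 genes have 34 annotated transcripts, 22 of them coding, and 7 of the genes have more than 1 transcript. In all 7 the alignment-based tables gave the same leading transcript in both libraries, and in 6 of the 7 the read-based tables did too. Igfbp3-201, Igfbp5-201 and Igfbp7-201 held 98.46%, 100% and 99.6% of their gene in replicate 1 and 97.33%, 100% and 100% in replicate 2. Igf1r-201, the only coding form of Igf1r, held 79.0% of the gene in replicate 1 and 82.91% in replicate 2, the rest being retained-intron transcripts. For these 4 genes the leading form was well above all others in both libraries.

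Insr had a coding and a non-coding part. The full-length Insr-201 held 59.8% of the gene in replicate 1 and 59.2% in replicate 2, at 27.98 and 28.41 TPM. Insr-202, a retained-intron transcript from the 5′ end of the gene, held 29.6% in replicate 1 and 29.5% in replicate 2. Read-based shares were higher for Insr-201, at 70.4% in replicate 1 and 71.9% in replicate 2, and lower for Insr-202, at 12.05% in replicate 1 and 10.96% in replicate 2. Coding transcripts of Insr summed to 32.2 TPM in replicate 1 and 33.4 TPM in replicate 2, so the total gene level includes RNA that does not encode the receptor.

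The cassette exon of Insr, shown above, was measured only through partial transcripts. Insr-201 lacks the exon, Insr-203, a 672-base fragment, has it spliced in, and Insr-204, a retained-intron transcript, runs across it. Insr-203 measured 4.24 TPM in replicate 1, with a credibility interval of 2.74 to 5.80 TPM, and 4.99 TPM in replicate 2, with an interval of 3.43 to 6.60 TPM. That is 13.2% of Insr-203 and Insr-201 together in replicate 1 and 14.9% in replicate 2, against read-based shares of 17.9% and 18.3%. No annotated full-length form carries the exon, so RNA of the B form would be split over both entries and these shares are not a measure of exon inclusion.

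In the alignment-based tables Igf1 had the largest change in the share of a single transcript between the libraries. Igf1-202, the long form without the alternative exon, held 65.39% of the gene in replicate 1 and 51.72% in replicate 2. The forms with the upstream first exon, which ends at chr10:87859412, summed to 5.22 TPM in replicate 1 and 4.16 TPM in replicate 2. The forms with the downstream first exon, which ends at chr10:87861385, summed to 0.86 TPM in replicate 1 and 1.96 TPM in replicate 2. Igf1-205 made most of that difference, with 0.36 TPM in replicate 1 and 1.40 TPM in replicate 2, from 8.62 and 34.28 counts. Its credibility intervals, 0.0000308 to 1.00 TPM in replicate 1 and 0.0666 to 1.89 TPM in replicate 2, overlapped. Those of Igf1-202 were separate, at 3.64 to 4.19 TPM in replicate 1 and 2.89 to 3.36 TPM in replicate 2. The read-based tables moved the same way, with forms of the downstream first exon at 32.02% of the gene in replicate 1 and 53.3% in replicate 2. The liver gene Alb had 2 counts in replicate 1 and 907 counts in replicate 2. Any part of liver RNA in the Igf1 forms was not tested.

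The alternative exon of Igf1 was in forms that summed to 1.59 TPM in replicate 1 and 1.41 TPM in replicate 2, or 26.2% and 23.0% of the gene. The read-based tables gave 11.7% in replicate 1 and 8.30% in replicate 2. Forms without the exon were the larger part by either quantification in each library.

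**Figure D2:**
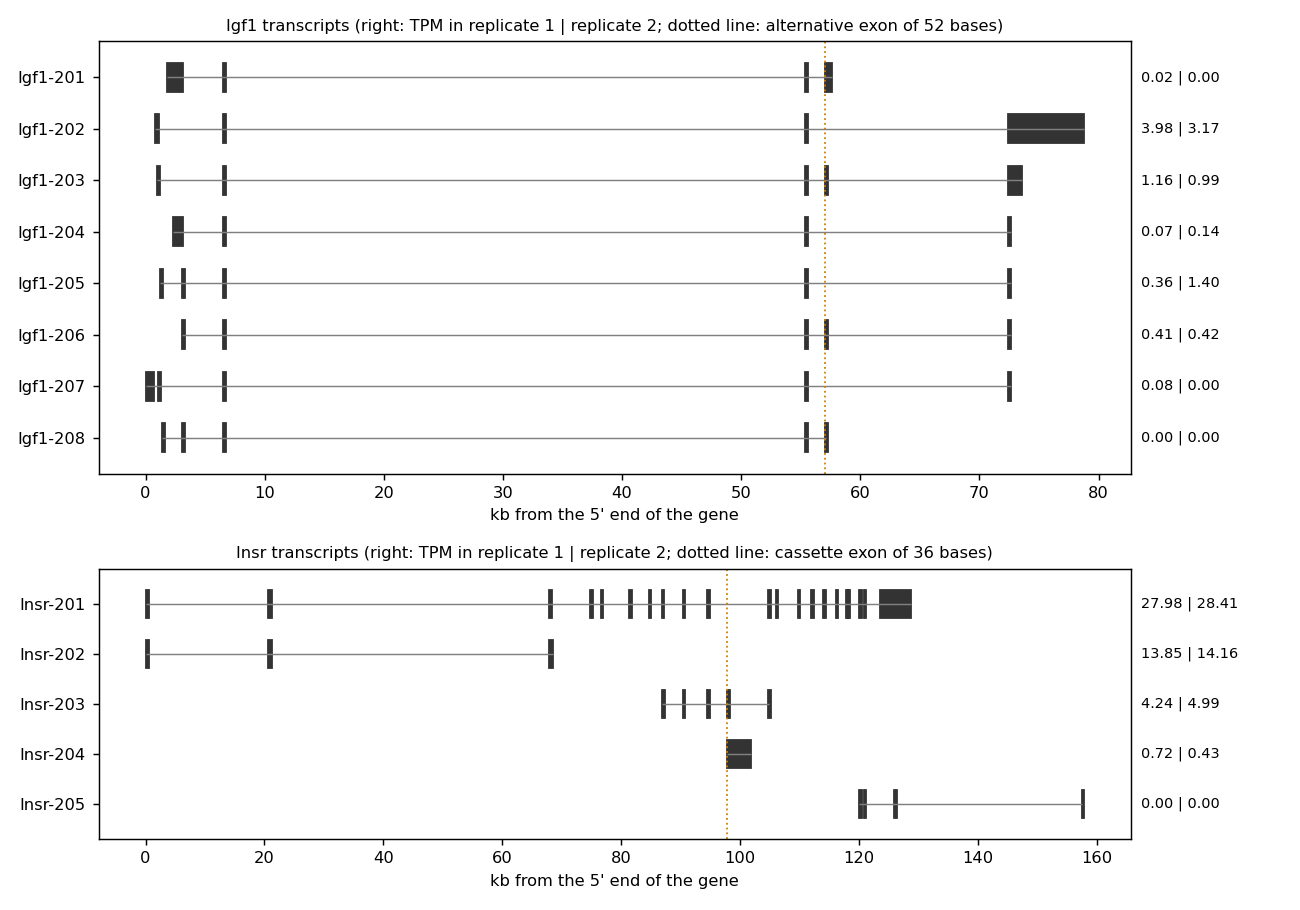
Annotated transcripts of Igf1 (top, 8) and Insr (bottom, 5) against distance from the 5′ end of the gene in kb, with exons as boxes (short exons widened to be visible), introns as lines, and TPM in replicate 1 and replicate 2 at the right. The dotted line marks the alternative exon of Igf1 and the cassette exon of Insr; the long Igf1-202 carries 3.98 and 3.17 TPM, and the full-length Insr-201, which lacks the cassette exon, 27.98 and 28.41 TPM.

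Igfbp4 was the gene whose leading transcript differed between the quantifications. The alignment-based tables gave the coding form Igfbp4-201 46.67% of the gene in replicate 1 and 47.92% in replicate 2, and the non-coding form Igfbp4-203 33.8% in replicate 1 and 31.14% in replicate 2. The read-based tables led with another non-coding form, Igfbp4-202, at 52.3% in replicate 1 and 51.9% in replicate 2, and gave Igfbp4-203 about 0 TPM in each. In counts Igfbp4-201 held 83.7% of the gene in replicate 1 and 84.1% in replicate 2, since it is 3831 bases long and the non-coding forms are 799 and 785 bases long. Coding transcripts summed to 22.3 TPM in replicate 1 and 17.7 TPM in replicate 2, and the gene total in TPM therefore rests on how reads were given to short forms.

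**Figure D3:**
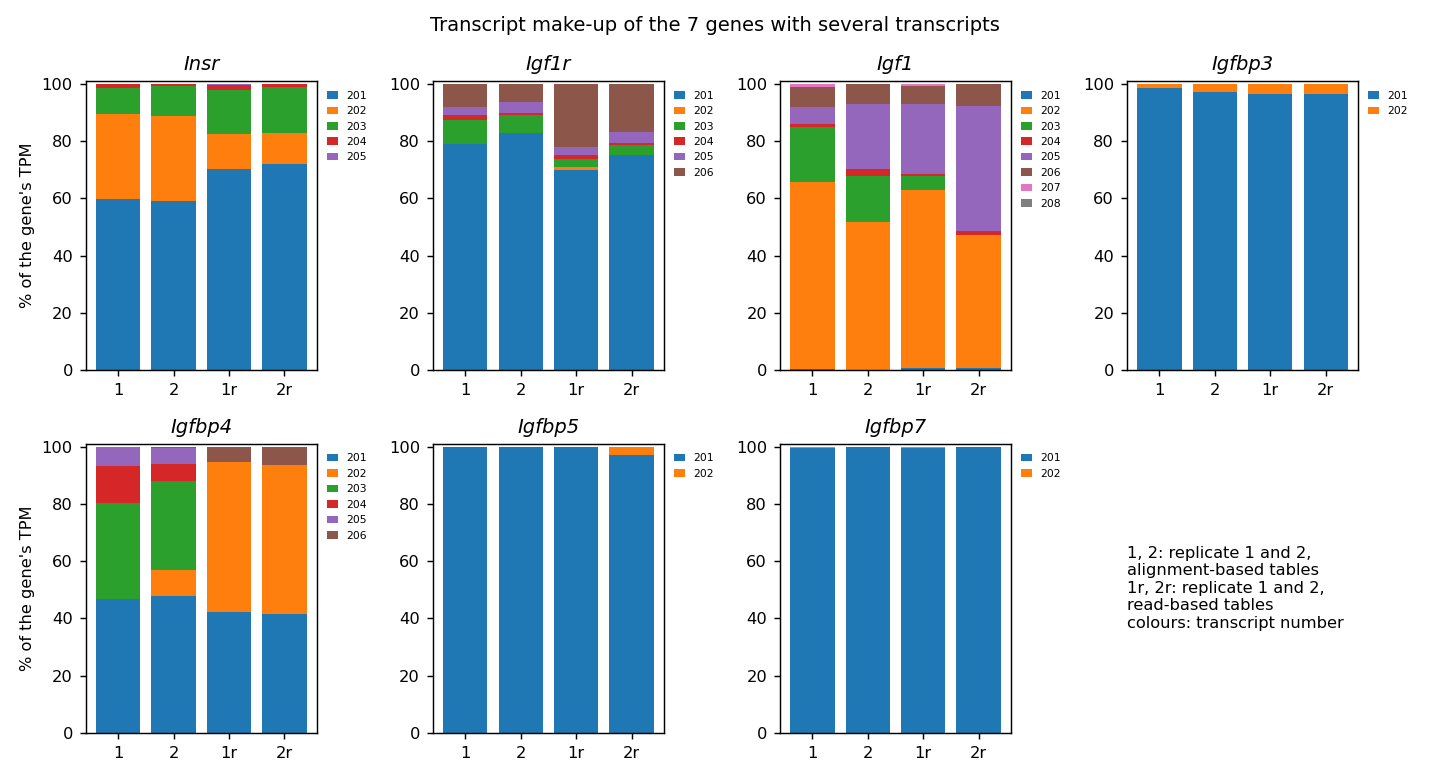
Share of each gene's TPM (%) held by each annotated transcript, for the 7 genes with several, in replicates 1 and 2 by the alignment-based tables and in the same replicates by the read-based tables (1r, 2r); colours are transcript numbers. Igfbp3, Igfbp5 and Igfbp7 are nearly a single form, Insr and Igf1r have a stable leading form, Igf1-202 holds 65.39% in replicate 1 and 51.72% in replicate 2, and Igfbp4 changes its leading form between quantifications.

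The libraries were then compared gene by gene, replicate 1 over replicate 2, with a two-sided exact binomial test of counts at library sizes scaled by the TMM method and Benjamini-Hochberg adjustment over the 15839 genes whose mean count reached 10. A gene was called at an adjusted p under 0.05, a ratio of at least 2 and separate credibility intervals. None of the 10 genes was called, against 0.821% of all genes tested (130 genes, 83 higher in replicate 1). Past the adjusted p alone, at any ratio, 6 of the 10 were higher in replicate 1, against 10.9% of all genes. 1 of the 10 was higher in replicate 2, against 9.43% of all genes. Among the 6851 genes with mean counts in the range of these 10, the same shares were 15.6% and 13.2%. The test compares 2 libraries and covers counting error only, so it says nothing of a condition.

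The adaptors had the largest ratios of the 10 genes, but only Irs1 stood apart. The interval of Irs2 overlapped those of several binding protein genes, among them Igfbp6 (1.08 to 1.42). Irs1 was 1.35-fold higher in replicate 1 (95% exact interval 1.30 to 1.41, adjusted p 3.66e-49 by the exact binomial test). Irs2 was 1.27-fold higher in replicate 1 (interval 1.15 to 1.40, adjusted p 3.18e-05 by the same exact test). Both passed with separate credibility intervals, and both stayed below the 2-fold limit. The median log2 ratio of the 10 genes was 0.23, beside -0.01 for genes in the same count range.

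All 5 binding protein genes had ratios above 1, and 3 of them passed the adjusted p. Igfbp7 was 1.20-fold higher in replicate 1 (interval 1.15 to 1.26, exact binomial adjusted p 1.44e-13), Igfbp5 1.20-fold (interval 1.16 to 1.24, adjusted p 7.27e-28) and Igfbp6 1.24-fold (interval 1.08 to 1.42, adjusted p 0.0108). Igfbp3 had a ratio of 1.12 (interval 1.02 to 1.23, exact binomial adjusted p 0.0568) and Igfbp4 a ratio of 1.05 (interval 0.99 to 1.11, adjusted p 0.281), and neither passed. Markers of several other cell types were also higher in sum in replicate 1. The 7 fibroblast markers summed to 543 TPM in replicate 1 and 436 TPM in replicate 2, with 4 past the adjusted p and higher in replicate 1. The 6 endothelial markers summed to 264 TPM in replicate 1 and 217.5 TPM in replicate 2, with 5 past it, and the 7 mural cell markers to 346 TPM in replicate 1 and 267 TPM in replicate 2, with 4 past it. The lists for macrophages and for epicardial cells were also higher in sum in replicate 1, while 4 adipocyte markers summed to 8.45 TPM in replicate 1 and 12.01 TPM in replicate 2. The 4 lymphatic endothelial markers summed to 47.2 TPM in replicate 1 and 48.4 TPM in replicate 2, but 2 passed the adjusted p in each direction. No marker of these lists was at 0 in both libraries, and their part in the binding protein ratios was not tested.

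Igf1 was 1.14-fold higher in replicate 1 by counts (interval 1.04 to 1.25, exact binomial adjusted p 0.0253), while its TPM was 6.09 in replicate 1 and 6.13 in replicate 2. Insr was the only one of the 10 genes past the adjusted p with a higher value in replicate 2. Its ratio was 0.930 (interval 0.904 to 0.956, exact binomial adjusted p 5.32e-06), but it was 0.997 at ERCC spike-in totals (exact binomial adjusted p 0.921, against 2.33e-08 to 0.00257 under the other settings). At TMM-scaled counts the 6 cardiomyocyte markers moved the same way as Insr, all 6 higher in replicate 2 and past the adjusted p. Their median log2 ratio was -0.12. By TPM only Ryr2 went the other way, with 392.0 in replicate 1 and 379.5 in replicate 2. Spike-in totals raise every ratio by the same factor. At TMM-scaled counts Actc1 (0.9395) and Ryr2 (0.9433) had ratios closer to equal than Insr, and the other markers lay farther from equal. The direction of all 6 markers is thus given for TMM-scaled counts only. Ratios of the markers at spike-in totals were not computed, and the part of the markers in the Insr ratio was not tested. Igf1r had a ratio of 0.975 (interval 0.919 to 1.03, exact binomial adjusted p 0.626), which became 1.04 at spike-in totals, so no direction is given for it. Over all tested genes the median log2 TPM ratio was 0.09, above that of the count ratios, but for Igf1 the TPM ratio lay below the count ratio. TPM divides by length, and the 798-base Igf1-205 held 5.99% of the gene in replicate 1 and 22.93% in replicate 2. The 7052-base Igf1-202 held 65.39% in replicate 1 and 51.72% in replicate 2. The near-equal TPM of Igf1 thus rests in part on the few counts given to a short form.

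**Figure D4:**
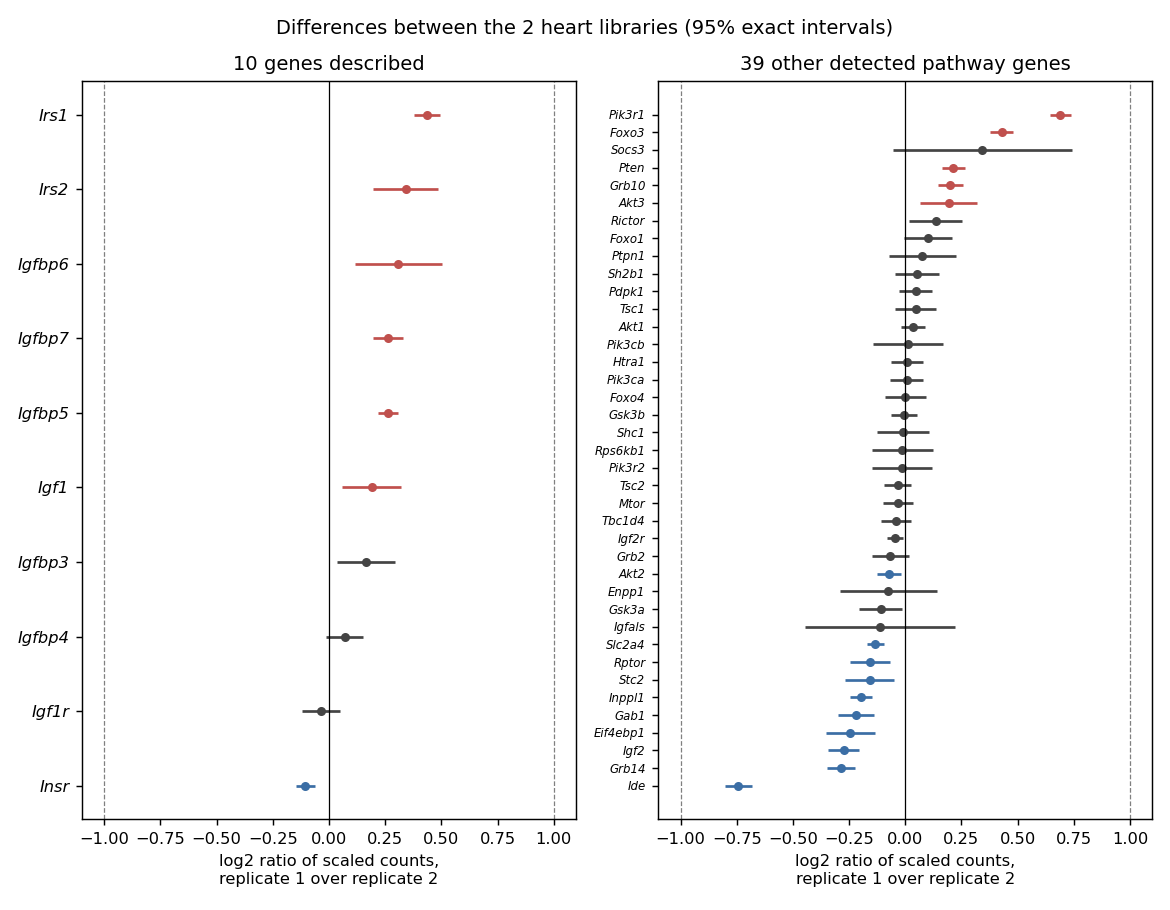
Log2 ratio of scaled counts, replicate 1 over replicate 2, with 95% exact intervals, for the 10 genes (left) and 39 other detected pathway genes (right); red and blue mark genes past an adjusted p of 0.05 and higher in replicate 1 or replicate 2, grey the others, and dashed lines a 2-fold ratio. Irs1 and Irs2 lie highest among the 10 at 1.35-fold and 1.27-fold, and no gene reaches a dashed line.

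Of 53 other listed pathway genes, 39 were detected and 47 tested, and none was called. Past the adjusted p, 5 were higher in replicate 1 and 10 in replicate 2, against 10.9% and 9.43% of all genes in those directions, and the median log2 ratio of the 47 was -0.00. Igf2 was higher in replicate 2, with a ratio of 0.826 (interval 0.788 to 0.867, exact binomial adjusted p 1.67e-13). In the phosphoinositide 3-kinase and AKT arm all 8 genes were detected. Akt1 was highest, with 79.22 TPM in replicate 1 and 70.68 TPM in replicate 2, and Pik3cb, a catalytic subunit, lowest, with 3.87 TPM in replicate 1 and 3.58 TPM in replicate 2. Of 14 effectors of AKT, all were detected. Slc2a4, the insulin-responsive glucose transporter, was highest, with 140.51 TPM in replicate 1 and 146.84 TPM in replicate 2, and the transcription factor gene Foxo1 lowest by mean, with 5.09 TPM in replicate 1 and 4.47 TPM in replicate 2. Of 7 negative regulators, Inppl1, a lipid phosphatase, was highest, with 55.93 TPM in replicate 1 and 61.71 TPM in replicate 2, and Socs3 was the lowest detected, with 2.41 TPM in replicate 1 and 1.12 TPM in replicate 2.

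Among the detected pathway genes past the adjusted p, Pik3r1, Foxo3 and Ide lay farthest from an equal ratio, and they were chosen after their values were seen. Pik3r1, the regulatory subunit that docks on Irs1 and Irs2, measured 42.69 TPM in replicate 1 and 25.66 TPM in replicate 2 (ratio 1.61, interval 1.56 to 1.67, exact binomial adjusted p 4.43e-183). Foxo3, a transcription factor that AKT keeps out of the nucleus, measured 34.71 TPM in replicate 1 and 24.15 TPM in replicate 2 (ratio 1.35, interval 1.30 to 1.40, exact binomial adjusted p 2.85e-58). Ide, the insulin-degrading enzyme, measured 26.79 TPM in replicate 1 and 42.22 TPM in replicate 2 (ratio 0.597, interval 0.573 to 0.623, exact binomial adjusted p 1.4e-127). Pik3r1 and Foxo3 thus lay on the same side as Irs1 and Irs2, and Ide on the other. The glucocorticoid and fasting genes, 10 in number, were listed with earlier results of these data known, so their direction is no independent finding. All had ratios above 1, and 9 were past the adjusted p, against 10.9% of all genes higher in replicate 1. The median log2 ratio of these listed genes was 0.80. Their part in the ratios of Irs1, Irs2, Pik3r1 and Foxo3 was not tested.

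Genes on the opposite strand overlap 5 of the 10 genes. Those that overlap Insr, Igf1, Irs1 and Irs2 had at most 2 counts in a library. Igfbp7 overlaps Polr2b, a subunit gene of RNA polymerase, which measured 13.29 TPM in replicate 1 and 13.24 TPM in replicate 2. The strand setting of the counting is not given in the sources used here, so reads in that overlap could belong to either gene.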

How the data were processed

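Per the deposited listings, the authors' tables use mm10 with GENCODE M21 annotation, and no tool is named there. The sources used here name no aligner, counter or setting. The deposited gene and transcript tables hold expected counts, TPM, and the percent of the gene's TPM held by each transcript. As deposited, they also hold bounds of credibility intervals on TPM, read here as score values, at a level not stated in the headers. The deposited read-based transcript tables hold estimated counts and TPM of the same libraries, summed here to genes. Gene levels are means and SDs of TPM over 2 libraries. For the comparison of libraries, expected counts were rounded to whole numbers and tested at library sizes scaled by TMM factors (edgeR 4.0.16). The tests were two-sided exact binomial tests (scipy 1.17.1), which were first tested on simulated data. The simulated counts held counting error only, so that check does not cover spread between libraries. Libraries differed beyond sampling noise, with a chi-square of 13.3 per degree of freedom. No p-value here measures the spread between libraries, since the tests cover counting error only. Limits for a count of 0 are 3 counts, and intervals and limits cover counting error only. The genes named are the 10 chosen by symbol and, of the pathway lists, ligands, binding proteins, called genes and the highest and lowest detected gene of each list. Insrr, Irs3, Irs4, Pappa, Pik3r1, Foxo3 and Ide were named besides, after their values were seen. The members and lists were chosen with earlier results of these data known. The 26248 tRNA and 96 ERCC entries were left out of the totals and tests.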

Additional observations from a re-analysis of the deposited data

How the results depend on the processing

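At other size factors (DESeq2, gene totals, spike-in totals) or with no filter on low counts, between 133 and 162 genes were called between the libraries, against 130 as reported. A mean count of at least 100 left 25, dropping the separate intervals gave 292, and read-based counts without them gave 340, of which 100 were shared with the 130. None of the 10 genes was called under any of these 7 settings. Spike-in totals moved the median log2 ratio of all genes by 0.1, left no member past the adjusted p and higher in replicate 2 (count 0, with Insr at a ratio of 0.997), turned the Igf1r ratio to 1.04 and put Igfbp4 past it (adjusted p 0.000582, against 0.087 to 0.642 elsewhere). Igfbp3 passed at 5 of the settings, with ratios of 1.12 to 1.20. The log2 ratio of Igf1r over Insr was -2.60 with a pseudocount of 1, -2.40 in read-based tables and -2.52 in protein-coding transcripts only, an alternative chosen after seeing the data. Irs1 over Irs2 was 1.83 with a pseudocount of 1, and Igf1 over Igf2 was -2.68 in protein-coding transcripts. The share of Igfbp7 stayed between 52.1% and 53.2% when a library was left out. Rescaling to nuclear protein-coding genes raised all 10 levels by up to 2.57-fold, and coding transcripts only lowered Igfbp4 by 1.59-fold. Coding transcripts only also put the mean of Insr, 32.81 TPM, below that of Igfbp5, 38.45 TPM. The causes were not tested. No paired analysis was possible because the libraries form a single group. With 2 libraries no outlying sample can be identified, and short transcripts rest on few counts.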
